A study of Capra hircus with 10 samples.

Results

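Reference genes are genes whose transcript is assumed to stay level between samples, so that the amounts of other transcripts can be divided by it. Here 8 genes in common use for this purpose, ACTB, GAPDH, YWHAZ, HPRT1, TBP, PPIA, B2M and TFRC, were followed in whole goat ovaries of the luteal and the follicular phase. They were chosen by name, and the FPKM of all protein-coding transcripts with the same symbol were summed. FPKM is the number of sequenced fragments of a transcript relative to its length and to the size of the library. All 8 were found, among 20587 protein-coding gene symbols in the table. The ovaries came from Anhui white goats, were collected at a slaughterhouse and were frozen, with 5 ovaries of the luteal phase and 5 of the follicular phase and 1 library from each ovary. No treatment was named in the labels, and ages were not used here. Which gene served as a reference in the study is not given in the sources used here.

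The ovary changes its makeup during the cycle. In the follicular phase, growing follicles with granulosa and theca cells are prominent, whereas in the luteal phase the corpus luteum, a vascular gland that makes progesterone, takes up much of the organ. A gene used in every cell is therefore measured in a changing mixture of cells. The 8 genes belong to unrelated pathways: the cytoskeleton, glycolysis, signalling, nucleotide salvage, transcription, protein folding, antigen presentation and iron uptake. Members of a reference panel are usually taken from different pathways so that they are not regulated together.

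The labelled phases were checked against marker genes. All 5 luteal cell markers tested were higher in the luteal phase, with STAR, which carries cholesterol into mitochondria, at 2651 ± 507 FPKM against 16.6 ± 5.58 (SD, n = 5 each). Of the 5 granulosa cell markers, FSHR, AMH and FOXL2 were higher in the follicular phase and 2 did not pass the test. The 5 endothelial markers were all higher in the luteal phase and the 5 smooth muscle markers all higher in the follicular phase. Of the 5 stroma markers, LUM was higher in the luteal phase, TCF21 was higher in the follicular phase and 3 did not pass. Among all genes tested, 15.9% were called higher in the luteal and 27.8% higher in the follicular phase. Over all genes tested, the median log2 difference, luteal minus follicular, was -0.14. With the ovaries set to equal medians of their log values (a median shift) it was -0.054, and it was -0.047 on the TPM scale, where the FPKM of each ovary are brought to 1 fixed sum. In bulk tissue, fewer cells of a type and less RNA per cell cannot be told apart. Depth per ovary is unknown from FPKM, and the spread between ovaries is the measure of error.

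Phases were compared on log2(FPKM + 0.1) with limma over 15359 genes, with Benjamini-Hochberg adjustment over this whole set. The 21 alternatives referred to are other scalings, filters, pseudocounts and models, other summaries of a gene, and fits without 1 ovary. They are not independent of each other. The deposited mRNA table repeats the same values, as does the most abundant transcript for a gene with a single transcript. The filters and models changed the p but not the estimated difference. Of the 8 reference genes, 3 had an adjusted p under 0.05. Among all genes tested 43.7% were called. On the TPM scale 5 of the 8 were called, all higher in the luteal phase, beside 5494 of all 15359 genes, so how the panel stood to the background depended on the scaling. HPRT1 and B2M were higher in the luteal phase and TBP was higher in the follicular phase, where the backgrounds in these directions were 15.9% and 27.8%. ACTB, GAPDH, YWHAZ, PPIA and TFRC did not pass. The median difference of the 8 was 0.20, above the -0.14 of all genes, and 6 of the 8 differences were above 0.

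**Figure D1:**
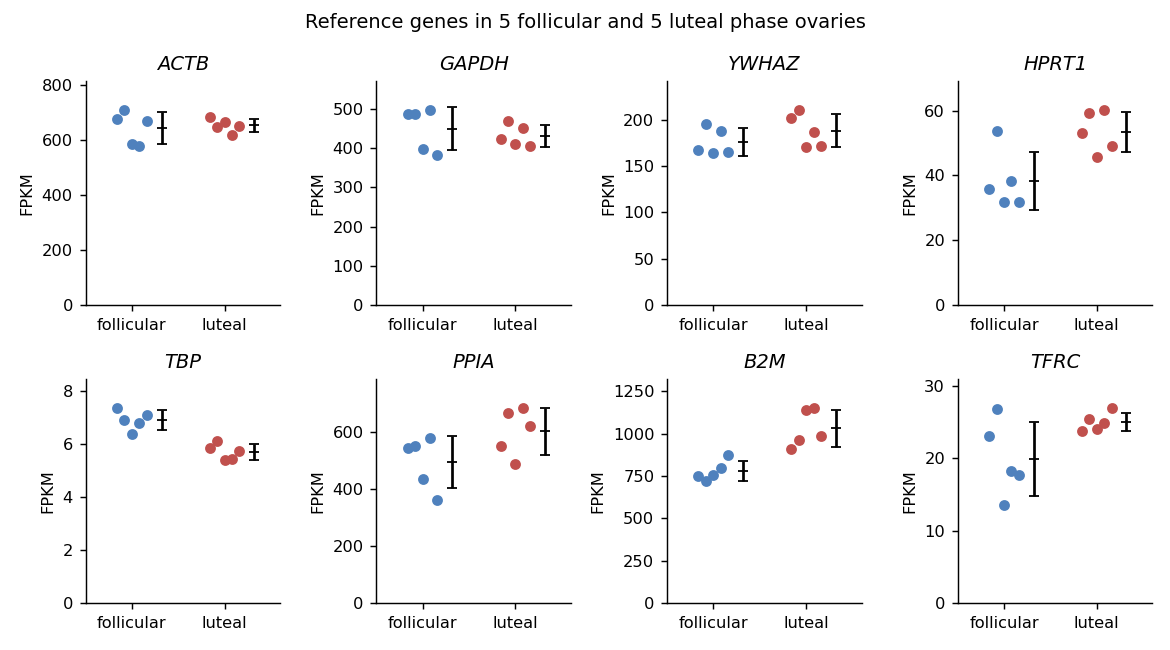
FPKM of each reference gene (vertical axis, from 0) in the 5 follicular phase (blue) and 5 luteal phase (red) ovaries, with the mean and SD of each phase in black. The phases separate fully for TBP and B2M, and the follicular phase ovaries of TFRC spread more widely than the luteal ones.

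ACTB encodes the cytoplasmic beta-actin of the cell's filaments. It stood at 686, 648, 666, 620.3 and 652 FPKM in luteal phase replicates 1 to 5 and at 677, 709.5, 586, 579 and 672 in follicular phase replicates 1 to 5. The luteal values all lay inside the follicular range. The difference on the log2 scale was 0.026 (standard error 0.086, limma adjusted p = 0.825), with a 95% interval from -0.16 to 0.21. On the linear scale this interval runs from 0.894-fold to 1.16-fold. Its sign turned to -0.0075 without follicular phase replicate 3 and to -0.012 without follicular phase replicate 4.

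Other genes of the actin list moved where ACTB was not called. ACTG1, the second cytoplasmic actin, had the lower level in luteal ovaries, with 892 ± 33.4 against 1181 ± 107 FPKM (SD, n = 5 each; log2 difference -0.40, limma adjusted p = 0.0052), and it was called in 21 of 22 settings, the one reported included. The muscle actins ACTA2 and ACTG2 were lower too, by -0.81 and -1.24 on the log2 scale. TMSB4X, which binds free actin, was higher by 0.53. PFN1 and CFL1, which load and sever filaments, had differences of 0.086 and -0.042 with limma adjusted p of 0.482 and 0.714. Of the 8 actin genes tested, 1 was higher in the luteal phase, 3 were higher in the follicular phase and 4 did not pass, where 15.9% and 27.8% of all genes were called in these directions. The summed FPKM of the 5 smooth muscle markers, ACTA2 among them, was 538 to 967 in luteal and 1176 to 1486 in follicular phase ovaries, and their part in the actin differences was not tested.

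GAPDH, the glycolytic enzyme that oxidises glyceraldehyde 3-phosphate, was at 422, 468, 409.7, 452 and 404 FPKM in the luteal phase ovaries. In the follicular phase it was at 487, 485, 398, 496 and 382. The follicular ovaries fell into 3 higher and 2 lower values that enclosed all luteal ones. Its log2 difference was -0.054 (standard error 0.098, limma adjusted p = 0.675; 95% interval -0.27 to 0.16), and its sign turned to 0.031 after the median shift and to 0.045 on the TPM scale. In fits without 1 ovary it lay between -0.016, without follicular phase replicate 4, and -0.11, without follicular phase replicate 5. Of the 7 glycolysis genes around it 1 was called, beside 43.7% of all genes. This was PGK1, at 132 ± 11.5 against 76.3 ± 16.6 FPKM, luteal against follicular (SD, n = 5 each; log2 difference 0.82, limma adjusted p = 0.00084). PGK1 makes ATP in the step after GAPDH and is itself often used as a reference. The other 6, ALDOA, TPI1, PGAM1, ENO1, PKM and LDHA (LDH-A in the table), did not pass, with a median of 0.15 over all 7.

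YWHAZ encodes the zeta form of 14-3-3, a family of adaptor proteins that bind phosphorylated partners. Its luteal phase values were 202, 210.0, 170.3, 187 and 171 FPKM and its follicular phase values 168, 195.5, 163, 187 and 165. The ranges overlapped, with luteal phase replicates 1 and 2 above every follicular ovary. The log2 difference was 0.096 (standard error 0.085, limma adjusted p = 0.377; 95% interval -0.090 to 0.28). It was 0.055 without luteal phase replicate 2, and on the TPM scale it was called, at 0.20 (limma adjusted p = 0.0399). Its relative YWHAB was higher in the luteal phase, at 115 ± 7.59 against 80.9 ± 4.46 FPKM (SD, n = 5 each; log2 difference 0.50, limma adjusted p = 0.00019). YWHAH was lower, by -0.27 (limma adjusted p = 0.0443), a call made in 10 of 22 settings, the one reported included. YWHAE, YWHAG, YWHAQ and SFN did not pass.

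HPRT1, which recycles hypoxanthine and guanine into nucleotides, had the highest coefficient of variation of the panel over the 10 ovaries (SD over mean of FPKM), 23.7%. After quantile normalization that of B2M was higher, 24.3% against 20.6%. With the most abundant transcript of each gene alone that of TFRC was higher, 68.2% against 23.7%. HPRT1 stood at 53.2, 59.2, 45.7, 60.1 and 49.0 FPKM in the luteal phase ovaries and at 35.8, 53.6, 31.9, 38.2 and 31.7 in the follicular phase ovaries. Follicular phase replicate 2 lay among the luteal values, and the other follicular ovaries lay below all of them. The log2 difference was 0.50 (standard error 0.14, limma adjusted p = 0.0139; 95% interval 0.19 to 0.81), or 1.42-fold. The call was kept in all 21 alternatives. Leaving out follicular phase replicate 2 raised the difference to 0.63. None of the 4 other purine salvage genes tested, APRT, ADA, ADK and PNP, passed at an adjusted p under 0.05 in limma, beside 43.7% of all genes, and 0 had an unadjusted p under 0.05. ADK, at 0.18, passed in 4 of 22 settings. PRPS1 was not analysed here.

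B2M is the invariant light chain of MHC class I molecules and was the most abundant of the 8 genes. Luteal phase ovaries held 911, 960.1, 1139, 1151 and 988 FPKM, and follicular phase ovaries 748, 720.5, 758, 795 and 875. Every luteal ovary lay above every follicular ovary, which held in either direction for 28.4% of all genes tested. It differed by 0.40 on the log2 scale (standard error 0.10, limma adjusted p = 0.0083; 95% interval 0.18 to 0.62), or 1.32-fold, and the call was kept in all 21 alternatives. Of 9 genes of class I antigen presentation 1 was called, beside 43.7% of all genes. FCGRT, the neonatal Fc receptor whose light chain is also B2M, was higher in the luteal phase, at 138 ± 7.41 against 109.5 ± 6.78 FPKM (SD, n = 5 each; log2 difference 0.33, limma adjusted p = 0.0022). The peptide transporter genes TAP1 and TAP2 and the chaperone genes CALR, CANX, PDIA3 and TAPBP did not pass, with differences from -0.15 to 0.13. Neither did ERAP1, which trims peptides, nor NLRC5, a transcriptional activator of class I genes. Of 6 leukocyte markers, CSF1R was higher in the luteal phase, as were 15.9% of all genes, and 5 did not pass. Their summed FPKM was 46.7 to 55.5 in luteal and 27.8 to 61.3 in follicular phase ovaries. That of the endothelial markers was 184 to 236 and 79.7 to 92.6. The part of either cell type in the level of B2M was not tested.

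TBP, the TATA-binding protein that nucleates transcription complexes, was the least abundant. It stood at 5.85, 6.09, 5.38, 5.43 and 5.72 FPKM in the luteal phase and at 7.35, 6.91, 6.35, 6.79 and 7.08 in the follicular phase. All 5 luteal ovaries lay below all 5 follicular ones. The estimated log2 difference was -0.27 (standard error 0.079, limma adjusted p = 0.0165; 95% interval -0.45 to -0.099). This call rested on the scaling of the libraries. It did not hold after the median shift (-0.19, limma adjusted p = 0.0757), after quantile normalization (-0.19, adjusted p = 0.0661) or on the TPM scale (-0.18, adjusted p = 0.158), while the sign stayed the same, nor for the most abundant TBP transcript alone (-0.15, adjusted p = 0.467). Leaving out single ovaries kept the call in 10 of 10 fits.

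TBP works inside TFIID, the complex that brings RNA polymerase II to promoters. Of 14 genes of TFIID subunits and TBP relatives, 5 were lower in the luteal phase, 1 was higher and 8 did not pass, a share called that lay near the 43.7% of all genes. TAF7 was at 51.1 ± 5.89 against 76.6 ± 6.70 FPKM, luteal against follicular (SD, n = 5 each; log2 difference -0.59, limma adjusted p = 0.00052). TAF5, TAF3, TAF4 and TBPL1 were lower by -0.65, -0.59, -0.57 and -0.50, and all 5 were also called after the median shift and on the TPM scale. TAF13 was higher, by 0.49 (limma adjusted p = 0.0090). The differences of TAF6 and TAF9 were -0.017 and -0.0022.

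PPIA, or cyclophilin A, helps proteins fold by turning proline bonds. Its luteal phase values were 552, 668, 488, 685 and 624 FPKM and its follicular phase values 543, 552, 437, 581 and 362. Luteal phase replicates 2, 4 and 5 lay above every follicular ovary, and the other two luteal ovaries lay inside the follicular range. The log2 difference was 0.30 (standard error 0.15, limma adjusted p = 0.121), and the 95% interval from -0.025 to 0.62 admits both no difference and a 1.53-fold one. It was called on the TPM scale, at 0.40 (limma adjusted p = 0.0336), and was 0.19 without follicular phase replicate 5 (limma adjusted p = 0.264). Of 8 other cyclophilins 1 was higher in the luteal phase, 2 were lower and 5 did not pass, beside 43.7% of all genes called. PPIC was higher in the luteal phase, at 53.9 ± 3.91 against 36.0 ± 2.82 FPKM (SD, n = 5 each; log2 difference 0.58, limma adjusted p = 0.00016), and PPID was lower, at 40.8 ± 4.98 against 61.5 ± 6.79 (log2 difference -0.59, limma adjusted p = 0.00080). PPIG was also lower, by -0.31, a call lost on the TPM scale (limma adjusted p = 0.0839), and PPIB, PPIE, PPIF, PPIH and PPIL1 did not pass.

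TFRC, the transferrin receptor that takes iron into cells, stood at 23.7, 25.5, 24.1, 24.8 and 26.9 FPKM in the luteal phase. In the follicular phase it was at 23.1, 26.8, 13.6, 18.3 and 17.7. The luteal ovaries lay close together, and the follicular ovaries ran from far below them up to the highest luteal level. The coefficient of variation was 5.13% in the luteal and 25.8% in the follicular phase. The log2 difference was 0.37 (standard error 0.15, limma adjusted p = 0.070; 95% interval 0.034 to 0.70). It was called after the median shift, on the TPM scale and without follicular phase replicate 2 (0.48, limma adjusted p = 0.0111), and was 0.24 without follicular phase replicate 3 (limma adjusted p = 0.138).

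Of 8 other genes of iron handling tested, 3 were higher in the luteal phase, 0 were lower and 5 did not pass, where 43.7% of all genes were called and 15.9% were higher in the luteal phase. TFR2, the second transferrin receptor, was at 12.9 ± 3.97 against 1.93 ± 0.625 FPKM (SD, n = 5 each; log2 difference 2.66, limma adjusted p = 1.38e-05). NCOA4, which delivers ferritin for breakdown, was higher by 1.04 and STEAP3, an iron reductase, by 0.70. The ferritin genes FTH1 and FTL, the exporter SLC40A1 and the sensors ACO1 and IREB2 did not pass. STEAP3 was called in 15 of 22 settings, the one reported included. Red cell precursors carry much TFRC. Of their markers ALAS2 and SLC4A1 were below the filter, with a mean FPKM of at most 0.013 in either phase, and AHSP did not differ beyond the spread between ovaries (limma adjusted p = 0.620). HBB was not analysed here.

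**Figure D2:**
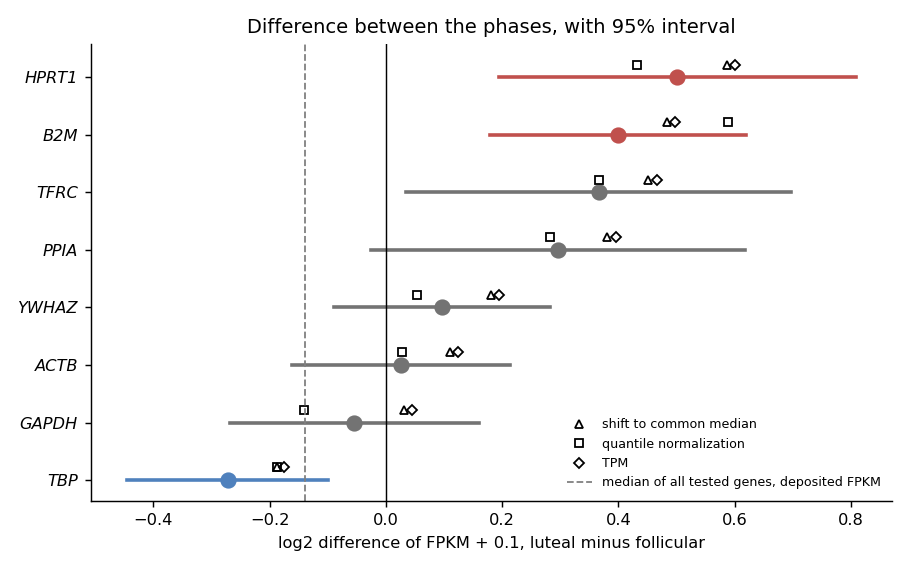
Difference between the phases for each reference gene on the log2(FPKM + 0.1) scale, as the limma estimate (large dot) with its 95% interval, coloured red or blue where the adjusted p was under 0.05 with the luteal or follicular phase higher. Open symbols give the difference after 3 other scalings. TBP is the only member whose large dot lies below the dashed line, which marks -0.14, the median of all genes tested.

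The coefficient of variation (SD over mean of FPKM) over the 10 ovaries ordered the panel as ACTB 6.55%, YWHAZ 9.18%, GAPDH 9.60%, TBP 11.3%, B2M 17.2%, PPIA 18.3%, TFRC 19.8% and HPRT1 23.7%. The order depended on the scaling. ACTB was at 8.78% on the TPM scale, above GAPDH at 7.66%, and at 10.2% after quantile normalization, above YWHAZ, GAPDH and TBP at 6.64%, 7.58% and 8.62%. For comparison, 6153 genes had a mean FPKM of at least 10, and their median was 15.7%. ACTB lay at the 4.62nd percentile of these genes, YWHAZ at the 15.4th and GAPDH at the 18.0th. B2M, PPIA, TFRC and HPRT1 lay at the 56.1st, 59.8th, 64.3rd and 74.4th, so these 4 spread more than the median of the 6153 genes. The ranks were taken on the deposited FPKM only, without matching genes by level. TBP was too low to be ranked. TBP had the smallest spread inside the follicular phase, 5.35%, and 5.22% inside the luteal phase, and its 11.3% over all ovaries includes the step between the phases. ACTB had the smallest spread inside the luteal phase, 3.71%. The coefficient was lower in the luteal than in the follicular phase for 6 of the 8 genes, against 56.5% of the 6153 genes, with YWHAZ and B2M as the exceptions.

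Ratios between 2 genes of a library stay the same when all its values are multiplied by 1 factor, as in the TPM scaling, but not under quantile normalization. The SD over 10 ovaries of the log2 ratio was taken for all 28 pairs of the panel, as a description with no test. It was smallest for GAPDH and YWHAZ, 0.13, followed by ACTB and YWHAZ, 0.15, and largest for HPRT1 and TBP, 0.47. The median was 0.27. The log2 ratio of HPRT1 to TBP lay between 3.07 and 3.45 in luteal and between 2.15 and 2.94 in follicular phase ovaries. Beside the 28.4% of single genes tested, the phases did not overlap in 8 of the 28 ratios. TBP was part of 6 of these, with ACTB, YWHAZ, HPRT1, PPIA, B2M and TFRC, and it was lower against each of them in the luteal phase. GAPDH was part of the other 2, with HPRT1 and PPIA. TBP and B2M also separated the phases by themselves. The share among ratios of other gene pairs was not computed, so the 8 ratios only describe the panel. Multiplying a library by 1 factor leaves these ratios as they are, and their overlap after quantile normalization was not computed. When the gene with the highest mean SD against those left was dropped in turn, TBP went first, then B2M, HPRT1, TFRC, PPIA and ACTB, and GAPDH and YWHAZ were left.

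**Figure D3:**
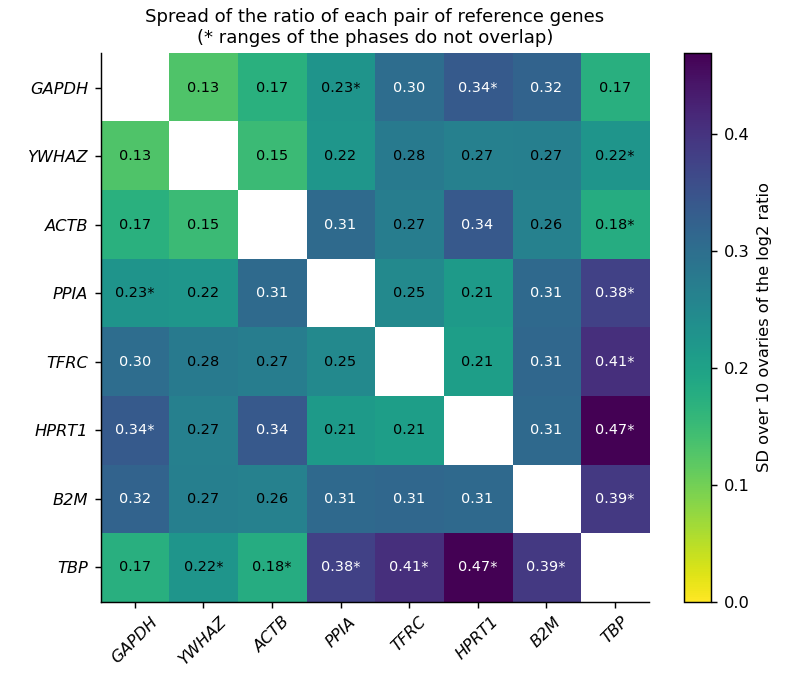
SD over the 10 ovaries of the log2 ratio of FPKM for each pair of reference genes, with darker cells for a wider spread. An asterisk marks the 8 pairs whose ratio did not overlap between the phases, and ACTB, GAPDH and YWHAZ form the pale corner, with values of 0.17 or less.

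What a choice of reference does to a comparison of the phases was shown by subtracting the log2 value of 1 member from every gene in each ovary and fitting limma again over the whole table. The spread of the reference between ovaries then enters every gene, so the tests of 1 such fit are not independent. The counts of calls below are therefore descriptions. Without such scaling, 6711 genes were called, and 36.3% of the calls were higher in the luteal phase (48.8% after the median shift and 52.5% on the TPM scale). Scaling to ACTB gave 6208 calls with 33.7% luteal. GAPDH gave 4268 calls with 49.7% luteal, the most even division of the panel, and its calls higher in the follicular phase numbered 2146, against 1291 in the fit that left out luteal phase replicate 4 and 1421 in the one that left out follicular phase replicate 3. YWHAZ gave 6122 calls with 27.0% luteal. At the extremes stood TBP, with 5823 calls and 78.1% luteal, and HPRT1, with 9778 calls and 7.48% luteal. B2M gave 10382 calls with 9.96% luteal and TFRC 7547 with 11.5%. PPIA gave 6388 calls with 14.8% luteal, a count that fell to 3999 without luteal phase replicate 4 and in which calls higher in the follicular phase went from 5440 to 3214 there and to 3429 without follicular phase replicate 3. The mean log2 value of all 8 gave 7601 calls with 20.2% luteal. Of the unscaled calls, 6034 were also called with ACTB as reference and 3716 with TBP. Among genes called both without scaling and with a given reference, 2 changed direction with B2M and 0 with any of the other references. Such a change is open only to genes whose difference lies between 0 and that of the reference.

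**Figure D4:**
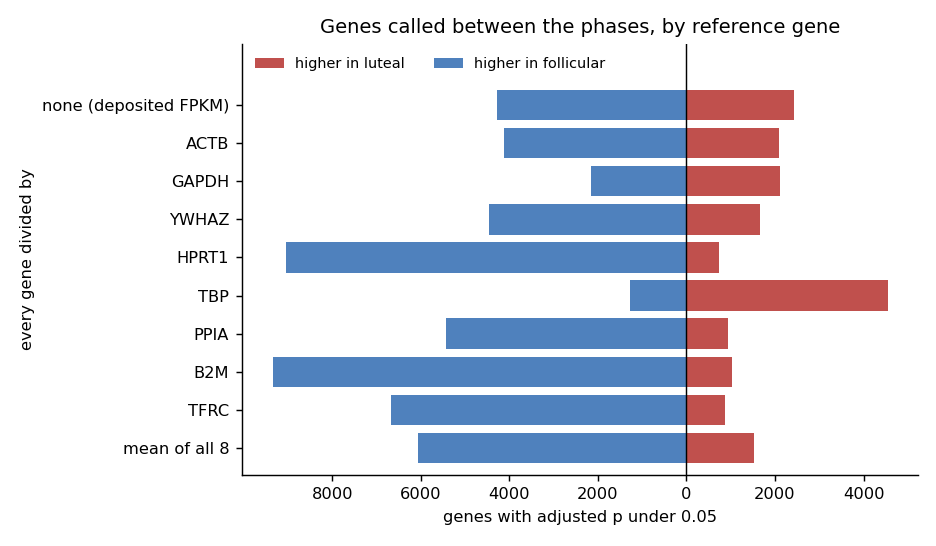
Number of genes with an adjusted p under 0.05 that were higher in the follicular phase (blue, to the left) or in the luteal phase (red, to the right) when every gene was divided by the reference named at the left. Division by TBP gives mostly luteal calls, 78.1%, and division by HPRT1 mostly follicular calls, with 7.48% luteal.

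Division by a reference moves the log2 difference of every gene by the difference of that reference, so the sizes below follow from the values above, and only the tests are new. As all genes of such a fit share the spread of the reference, the adjusted p of scaled fits are descriptions too. STAR had a log2 difference of 7.35 unscaled, from 6.84 with HPRT1 to 7.62 with TBP. LHCGR, the LH receptor gene, had 2.87 unscaled, from 2.37 with HPRT1 to 3.14 with TBP. FSHR, the FSH receptor gene of granulosa cells, had -0.94 unscaled and went from -1.44 with HPRT1 to -0.67 with TBP, called with each. AMH, also made by granulosa cells, had -1.42, from -1.92 to -1.15 with the same references. For CYP19A1, the aromatase that makes oestrogen, the call depended on the reference. Its difference was -1.32 unscaled (limma adjusted p = 0.174) and was not called with ACTB, GAPDH, YWHAZ, TBP or B2M. Unscaled, it was -0.75 without luteal phase replicate 3 (limma adjusted p = 0.371), and with the replicate number as a block it was called (limma adjusted p = 0.0060). Of the scaled fits, it was called with HPRT1 (-1.82, limma adjusted p = 0.0220), PPIA (-1.61, adjusted p = 0.0289) and TFRC (-1.68, adjusted p = 0.0209). Its standard error was 0.75 unscaled and 0.64, 0.56 and 0.56 with HPRT1, PPIA and TFRC.

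The table lists 17 transcripts for the 8 genes, and all 17 passed the filter in a fit over 32842 transcripts. Of these, 2 were called at an adjusted p under 0.05, both higher in the luteal phase. Among all transcripts tested 17.3% were called, 7.47% higher in the luteal and 9.82% higher in the follicular phase. They were XM_018044253.1, with 98.8% of the FPKM of HPRT1 (limma adjusted p = 0.0442), and XM_018053818.1, the only transcript of B2M (limma adjusted p = 0.0114). The count of 2 fell to 1 in 11 of 19 alternatives. A single transcript also carried 99.7% of ACTB, 97.1% of YWHAZ and 90.9% of PPIA, and GAPDH is listed with 1. TBP was divided between XM_018053503.1, with 65.6%, and XM_018053502.1, with 34.4%. Both had lower means in the luteal phase, with differences of -0.15 and -0.53, but neither was called (limma adjusted p = 0.542 and 0.193). The coefficient of variation of these transcripts, 15.2% and 32.3%, exceeded the 11.3% of their sum.

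TFRC was the most divided, over 5 transcripts of which none held more than 29.4%. The coefficients of variation of the 5 ran from 68.2% to 125%, against 19.8% for their sum. XM_013963470.2 was at 9.11, 9.03, 11.8, 8.28 and 12.1 FPKM in the luteal phase and at 7.93, 5.90, 1.55, 0 and 0.316 in the follicular phase. All luteal ovaries lay above all follicular ones for this transcript, as ranges did not overlap for 15.3% of all transcripts, but its log2 difference of 2.98 had a standard error of 1.06 (limma adjusted p = 0.0801). XM_018046130.1 had most of the signal in follicular phase replicates 3 and 5, at 12.0 and 16.5 FPKM, where XM_013963470.2 was low, and lay between 1.22 and 4.22 in the luteal phase. XM_018046142.1 was listed at 0 in 5 of the 10 ovaries and had its highest value in luteal phase replicate 4. A value for 1 transcript of TFRC thus moved more from ovary to ovary than the value for the gene, and whether these divisions lie in the ovaries or in the assignment of fragments to overlapping transcripts was not tested.

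**Figure D5:**
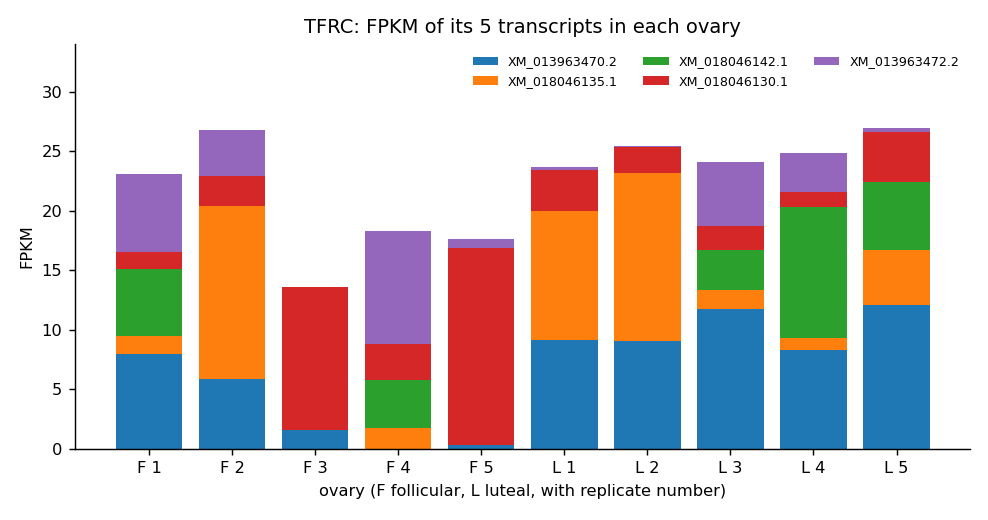
FPKM of the 5 TFRC transcripts, stacked, in each follicular (F) and luteal (L) phase ovary. The division among transcripts changes between ovaries of a phase while the luteal totals stay between 23.7 and 26.9 FPKM.

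A list of 25 other genes often used as references was drawn up, and 22 were in the table and tested. Of these, 6 were higher in the luteal phase, 10 were higher in the follicular phase and 6 did not pass. The median difference was -0.052, and its sign turned to 0.033 after the median shift and to 0.047 on the TPM scale. The shares among all genes were 15.9% and 27.8% in these directions. The phases did not overlap for 13 of the 22, and for 28.4% of all genes. The 6 that were higher in the luteal phase kept their direction and call in each alternative. ALAS1, the first enzyme of haem synthesis, was at 107 ± 31.7 against 20.6 ± 3.51 FPKM (SD, n = 5 each; log2 difference 2.34, limma adjusted p = 5.37e-06), the largest difference of the list. SDHA, a subunit of the respiratory chain, was higher by 0.82, with PGK1 as given above. GUSB, a lysosomal enzyme, was higher by 0.62 and POLR2A, the large subunit of RNA polymerase II, by 0.34.

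The 10 genes that were higher in the follicular phase were the ribosomal protein genes RPLP0, RPL13A, RPL19, RPL4, RPS9 and RPS18, the translation factor genes EEF1A1, EIF3K and EIF4A2, and the splicing factor gene SF3A1. Their differences ran from -0.59 for SF3A1 to -0.32 for EIF4A2. Ribosomal protein genes have closely similar pseudogenes, and whether reads were shared with them was not tested. All 10 were also called on the TPM scale, where 2610 of all 15359 genes were called higher in the follicular phase. After quantile normalization 6 genes of the list were called in this direction, beside 3746 of all genes. After the median shift 3 were, RPS9, SF3A1 and RPL4, beside 3055 of all genes, while the sign of all 10 stayed the same. RPS18 was called in 12 of 22 settings, the one reported included. PPIB, the secreted cyclophilin, had the smallest spread of the list, with a coefficient of variation of 7.66% and a log2 difference of 0.0088 (limma adjusted p = 0.944; 95% interval -0.19 to 0.21). MRPL39, of the mitochondrial ribosome, followed with 7.96%, and PSMB2, a proteasome subunit, with 9.37%. Their log2 differences were -0.074 and -0.018. UXT did not pass either, with a log2 difference of -0.030. On the deposited FPKM none of the 22 had a lower coefficient than ACTB, and 6 had one below the 14.2% that was the median of the panel.

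For each member, the genes with the most similar course were taken as those with the smallest SD over the 10 ovaries of the log2 ratio to it, among 11428 genes with a mean FPKM of at least 1. This is a description of likeness and says nothing of shared control. YWHAZ was followed most closely by SAR1A, a GTPase of vesicle transport, with an SD of 0.048. TBP was nearest to APEX1, a DNA repair enzyme, with 0.050, and then to PPP2R1B, a phosphatase subunit, with 0.054. GAPDH was nearest to DDOST and PDIA4, genes of the endoplasmic reticulum, with 0.053 and 0.065. ACTB was nearest to ZC3H7A and BAG6, with 0.057 and 0.058, and B2M to OSTM1 and TMBIM6, with 0.063 and 0.076. The second gene for YWHAZ was DPM1, with 0.056. PPIA was nearest to POLR2L, a small subunit of RNA polymerases, and NDUFA5, of respiratory complex I, with 0.086 and 0.11. HPRT1 was nearest to EPRS, a tRNA synthetase, and TPM4, a tropomyosin, with 0.097 and 0.10, and TFRC to HSPA13 and RBBP8, with 0.12 each. The nearest genes thus fitted the members with a wide spread less closely than those with a narrow one.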

How the data were processed

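RNA of 10 goat ovaries, 5 of the luteal and 5 of the follicular phase, was depleted of ribosomal RNA and sequenced in strand-specific paired-end libraries. For the deposited FPKM values of each transcript and ovary, the authors used HISAT2 for alignment, StringTie for assembly and Cuffdiff for quantification, without pooling ovaries. The genome build is not given in the sources used here. Read counts were not used here, so the depth per ovary is unknown. Nothing says whether 2 ovaries could come from 1 animal, and p-values measure the spread between ovaries.

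FPKM of protein-coding transcripts were summed by symbol. Only genes reaching 0.1 FPKM in 5 or more ovaries entered the fit, made with limma 3.58.1 in R 4.3.3 (lmFit, eBayes with trend) on log2(FPKM + 0.1), as a two-sided test with Benjamini-Hochberg adjustment over all features tested. The script was tested on simulated data. Other values came from Python 3.11.15 with pandas 2.3.3. Members and lists were chosen with earlier results of these data known. Listed symbols absent from the table were sought through RefSeq synonyms (assembly ARS1.2), which matched LDHA to LDH-A. CYC1, H2AZ1, TUBA1B, PRPS1, TF, SLC11A2, HSD3B1 and HBB were not analysed here, and some listed genes enter the counts but are not reported singly here. Named are the 8 members, list genes past the threshold or with the largest or smallest difference, the 2 nearest to each member by the SD of the log2 ratio, the 5 with the smallest coefficient of variation, and STAR, LHCGR, FSHR, AMH and CYP19A1. LOC symbols were left out of the nearest and least variable genes. The alternatives covered the scaling (median shift, TPM, quantile normalization), the pseudocount (1 or 0.01), the filter (0.5 FPKM, or none), the model (eBayes with no trend, or a replicate block), the deposited mRNA table, the most abundant transcript, and leaving out each ovary.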

Additional observations from a re-analysis of the deposited data

How the results depend on the processing

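The count of 3 reference genes called stayed between 2 and 4 under 20 of 21 alternatives and was 5 on the TPM scale, all higher in the luteal phase. Calls among the 22 other reference genes numbered 16, beside 6711 of all 15359 genes. They numbered 9 with the median shift (5965 of all genes), 12 with quantile normalization (6433) and 17 on the TPM scale (5494). The count of member transcripts was 2, and it was 1 without the filter, after the median shift, after quantile normalization and with eBayes run without trend, and between 1 and 3 when ovaries were left out. Calls after scaling to PPIA ran from 3999, without luteal replicate 4, to 7283 in those fits. The sign of ACTB turned between fits without single ovaries, from -0.012 to 0.061, and that of GAPDH turned after the median shift (0.031) and on the TPM scale (0.045). The cause of these changes was not tested. The other results kept their side of the threshold or moved within the spread, apart from the calls of listed genes and the changes to YWHAZ, PPIA, TFRC and TBP given above, and the deposited mRNA table gave the same values. The median coefficient of variation of the panel, 14.2%, lay between 12.6% and 16.6% in all settings. Deviations of equally numbered ovaries correlated with r from 0.026 to 0.20 across genes, and nothing in the labels pairs them. Of all gene calls, 36.3% were higher in the luteal phase, against 48.8% after the median shift and 52.5% on the TPM scale. With the replicate number as a block, 3 reference genes were called, HPRT1, B2M and TBP, at limma adjusted p of 0.0036, 0.0089 and 0.0237, and CYP19A1 was called at an adjusted p of 0.0060. The FPKM carry no depth, so the counting error of low genes such as TBP is unknown.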

Other observations

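Outside the panel, the 5 named genes with the smallest coefficient of variation among the 6153 genes with a mean FPKM of at least 10 were APPL1 (2.15%), ZUFSP (2.53%), RAB14 (2.79%), TMF1 (3.05%) and MOB1A (3.08%). They were picked on these ovaries for that spread, which is therefore a description with no test. APPL1, an adaptor protein of early endosomes, lay between 35.2 and 36.8 FPKM in luteal and between 36.0 and 37.8 in follicular phase ovaries. RAB14, a GTPase of membrane traffic, lay between 42.2 and 46.6 and between 44.5 and 46.7. ZUFSP, a deubiquitinase, had a mean FPKM of 13.0 over all ovaries, and TMF1, a protein of the Golgi, one of 27.9. MOB1A, an activator of Hippo pathway kinases, lay between 56.1 and 58.2 in the luteal and between 59.2 and 61.3 in the follicular phase. Its phases did not overlap although its log2 difference was only -0.076 (limma adjusted p = 0.217).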
